A study of Mus musculus with 8 samples.

Results

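The genes described here are 47 neighbours of Ackr1 on distal mouse chromosome 1. They were taken from a list of genes of the segment that holds the targeted locus, and a probe was counted to a member where its RefSeq transcript belongs to that gene. All 47 had a probe, with 65 probes in all, among 20145 gene symbols with a probe on the array. In RefSeq's gene order 40 of the 47 lie before Ackr1 and 7 after it, the outermost being Uap1 and Exo1. The list is not every gene of the stretch: 74 other protein-coding genes, Ackr1 among them, lie between these ends.

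Expression was measured on 8 one-colour Agilent arrays, with 2 arrays in each of 4 groups. LSK and GMP were each sorted from marrow of ACKR1-deficient mice and of wild-type mice. LSK are marrow cells without lineage markers that carry Sca1 and cKit, the gate that holds stem cells and multipotent progenitors. GMP, granulocyte-macrophage progenitors, lack Sca1 and carry cKit, CD34 and CD16/32. All mice were females 12 weeks old on a C57Bl/6J background, onto which the deficient line had been backcrossed over more than 12 generations, and the wild-type mice were littermates from heterozygous breeding. The sources used here do not give the construct of the deficient allele or the strain in which it was made. Nothing in the labels says that the arrays of a group came from separate mice, and the p-values then reflect only how far these arrays spread, which may be technical.

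Ackr1 encodes atypical chemokine receptor 1, the Duffy antigen, which binds chemokines without signalling through G proteins and is known from red cells and venular endothelium. When a targeted allele is moved to another strain by backcrossing, its neighbours on the chromosome are inherited with it until a recombination separates them, so genes beside a targeted locus can keep alleles of the strain in which it was made. The distal part of mouse chromosome 1 is crowded with immune genes, among them the SLAM receptors of leukocytes, the pentraxins, Fc receptors and the interferon-inducible Ifi200 genes. Whether the deficient mice and their littermates differ in sequence in this segment was not measured here.

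Promoter sequences are printed for Itln1, which had the largest genotype difference, and for Dusp23 and Tagln2, neighbouring tested members that both stood lower in deficient cells. Each is the 250 bases before the annotated start, 5′ to 3′ on the gene's strand, from RefSeq on GRCm38.p6. The Itln1 window is chr1:171535295-171535544 on the minus strand, the Dusp23 window chr1:172632975-172633224 on the minus strand and the Tagln2 window chr1:172499996-172500245 on the plus strand. Capitals mark matches, on either strand, to the TATA box TATAAA, the CCAAT box CCAAT, the GC box GGGCGG or the E-box CACGTG, which USF1, itself encoded by a member, is known to bind.
Itln1: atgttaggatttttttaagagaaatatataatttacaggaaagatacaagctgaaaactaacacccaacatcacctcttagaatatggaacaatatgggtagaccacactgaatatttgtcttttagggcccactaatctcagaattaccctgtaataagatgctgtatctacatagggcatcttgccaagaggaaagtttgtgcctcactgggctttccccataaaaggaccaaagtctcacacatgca
Dusp23: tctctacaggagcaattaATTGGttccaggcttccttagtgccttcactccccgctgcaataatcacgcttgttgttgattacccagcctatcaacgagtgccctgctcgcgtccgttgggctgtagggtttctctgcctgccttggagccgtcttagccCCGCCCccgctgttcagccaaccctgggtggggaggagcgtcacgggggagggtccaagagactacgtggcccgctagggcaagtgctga
Tagln2: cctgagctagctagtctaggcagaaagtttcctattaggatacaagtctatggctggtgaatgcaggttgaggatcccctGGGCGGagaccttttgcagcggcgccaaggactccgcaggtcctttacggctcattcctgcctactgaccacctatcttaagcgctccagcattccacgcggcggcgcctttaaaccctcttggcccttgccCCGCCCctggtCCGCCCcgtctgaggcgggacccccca

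The Itln1 window held none of the 4 motifs, with a GC content of 38%. The Dusp23 window held a CCAAT box, read as ATTGG, and a GC box, read as CCGCCC and beginning 232 and 90 bases before the start, with a GC content of 59.2%. Tagln2 had 3 GC boxes, beginning 170, 38 and 27 bases before the start, and a GC content of 60%. No matches overlapped in these windows. Over 32851 RefSeq windows of the same length, 12.4% held the TATA box, 33.8% the CCAAT box, 32.7% the GC box and 6.02% the E-box. RefSeq's table had windows for 42 of the 47 members, 49 in all, of which 3, 18, 20 and 5 held these motifs in that order. A match is a run of letters and not a site shown to be used.

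A probe was tested if 1 group or more had it well above background on each of its 2 arrays, and 41 of the 47 members had such a probe, among 28088 features tested. A member that passed through the group in which it is high had to differ to some degree, so the counts below describe the tested members only. Crp and Atp1a4, the genes of C-reactive protein and a sodium pump subunit of sperm, and Casq1, of muscle calsequestrin, stood above background on 0 arrays. Vsig8 and Adamts4 did so on 1 array and Slamf8 on 3, and these 6 were not tested. Of the 41, 22 stood above background on all 8 arrays. Levels are log2 of the signal over the array's 75th percentile, so that 0 is the signal at that percentile, and levels of different probes cannot be set against each other. In such bulk samples fewer cells of a type and less RNA per cell cannot be told apart.

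The arrays were unequal. Deficient LSK replicate 2 had 34.3% of its spots well above background and a 75th percentile of 24.6 units, against 62.5% to 73.1% and 197 to 770 units on the other arrays. It correlated with deficient LSK replicate 1 at r = 0.780 over all features tested, against 0.898 to 0.976 between replicates of the other groups. Probes not above background can read high on it: Casq1 read −3.01 there, against −7.92 to −6.18 on the other arrays. Crp, Casq1 and both probes of Atp1a4, above background on 0 arrays, had LSK differences of 2.71, 2.38, 2.45 and 2.15. Positive LSK differences of dim members can take in such readings. Of the 41 tested members, 17 were lowest and 11 highest on this array, and 12 were highest on deficient GMP replicate 1. Without the first array the LSK difference changed sign for 15 of the 41, and without the second the GMP difference did so for 10. All 8 arrays lay on 1 slide, where the first position index was 1 for each deficient array and 2 for each wild-type array, so slide position and genotype cannot be told apart.

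Markers of other cell types moved with genotype. The summed linear level of 8 neutrophil granule genes was 1250 to 3330 on the 4 deficient arrays, against 3.26 to 16.8 on the 4 wild-type arrays, with 7 of 8 higher in deficient LSK and 6 of 8 in deficient GMP (adjusted p under 0.05). That of 7 red cell genes was 468 to 997 on deficient arrays, against 1.73 to 17.1 on wild-type arrays, with 5 of 7 higher in each population. Of the defining genes, 1 granule gene and up to 2 red cell genes stood above background on neither array of a wild-type group, as did 3 B cell genes in wild-type GMP. Of 5 B cell genes, 1 passed in LSK and 2 in GMP, summed over 3.37 to 11 on deficient and 4.86 to 13.6 on wild-type arrays. Tested T and NK cell genes (3 of 6) and macrophage genes (4 of 6) had 0 passing, summed over 17.7 to 70.3 on deficient and 22 to 113 on wild-type arrays for the first and over 2.96 to 6.84 and 1.51 to 3.64 for the second. None passed among 6 genes listed for the sorted cells, namely Kit, Ly6a (Sca1), Cd34, Fcgr3, Fcgr2b and Flt3, the last in neither gate. They summed to 168 and 99.2 in LSK of deficient mice, against 238 and 310 in LSK of wild-type mice. In GMP the sums were 248 and 124 in deficient mice, against 152 and 125 in wild-type mice. As the GMP gate excludes Sca1, these sums do not show how well the gates held. The part of the other cell types in any result below was not tested.

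The targeted gene itself was not called between genotypes in the average, and in GMP its deficient arrays lay above its wild-type arrays. Ackr1 read −0.70 and −0.85 in deficient LSK, against −0.66 and −1.05 in wild-type LSK, and −0.07 and −0.16 in deficient GMP, against −0.50 and −0.45 in wild-type GMP. Its averaged difference was 0.22 (SE 0.43, adjusted p = 0.847), and the files do not say whether its probe lies in a part that the allele removes. The annotated locus of Cadm3, a cell adhesion molecule of neurons, overlaps that of Ackr1 in RefSeq's table. Cadm3 differed by −0.46 in LSK (SE 0.63, adjusted p = 0.738) and by 0.13 in GMP.

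Itln1 was the member with the largest difference, and it was higher in both deficient populations. It encodes intelectin 1, a secreted lectin that binds microbial sugars and is known from Paneth and goblet cells of the gut. Itln1 read 2.06 and 1.01 in deficient LSK, against −4.59 and −3.76 in wild-type LSK. It read 2.16 and 1.10 in deficient GMP, against −4.97 and −5.82 in wild-type GMP. All 4 deficient arrays lay far above all 4 wild-type arrays, with no overlap. The difference was 5.71 in LSK (SE 0.74, limma, adjusted p = 0.0173), 52.4-fold, with 1 of the 2 wild-type arrays above background. In GMP it was 7.02 (SE 0.74, adjusted p = 0.00977), at least 130-fold, since neither wild-type array stood above background and their own signals set the bound. Averaged over both populations it was 6.37 (SE 0.52, adjusted p = 0.000636), which takes in the wild-type GMP values below background.

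The second Itln1 probe stood above background on 3 arrays, all of them deficient, namely LSK replicate 1 and both GMP arrays, so its differences are bounds and are not given. The genotype difference in GMP minus that in LSK was 1.31 (SE 1.05, adjusted p = 0.961). Without deficient LSK replicate 2 and deficient GMP replicate 1 together, Itln1 differed by 6.23 in LSK (adjusted p = 0.0601), by 6.49 in GMP (adjusted p = 0.106) and by 6.36 averaged (adjusted p = 0.0168). The LSK call was also lost without wild-type LSK replicate 1 or 2 (adjusted p = 0.154 and 0.138), and without deficient LSK replicate 2 alone (0.102). Leaving out deficient GMP replicate 1 (0.159) or wild-type GMP replicate 2 (0.0803) ended the GMP call. Some inbred mouse strains carry further intelectin genes nearly identical to Itln1 that C57BL/6J lacks, and which copies a probe reads was not tested. Itln1 moved in the same direction as the granule and red cell markers given above.

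Dusp23 was the member with the largest difference on the lower side. It encodes a small dual-specificity phosphatase. Dusp23 read −1.64 and −3.05 in deficient LSK, against 0.27 and 0.94 in wild-type LSK. It read −1.57 and −1.17 in deficient GMP, against 1.78 and 1.00 in wild-type GMP. All 4 deficient arrays lay below all 4 wild-type arrays, and the signal was above background on every array except deficient LSK replicate 2. The difference was −2.94 in LSK (SE 0.73, adjusted p = 0.298) and −2.76 in GMP (adjusted p = 0.468), neither past the threshold. Averaged over both it fell by 2.85 on the log2 scale (SE 0.51, adjusted p = 0.0464), 7.22-fold lower in deficient cells.

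The averaged Dusp23 call was near the threshold: without deficient LSK replicate 2 the difference was −2.50 (adjusted p = 0.115), and without that array and deficient GMP replicate 1 it was −2.40 (adjusted p = 0.178). It was also lost without wild-type LSK replicate 1 (adjusted p = 0.142) or 2 (0.284), deficient GMP replicate 1 (0.213) or 2 (0.0785), and wild-type GMP replicate 1 (0.21) or 2 (0.153). Dusp23 has 1 probe on the array, so no second probe could be compared.

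**Figure D1:**
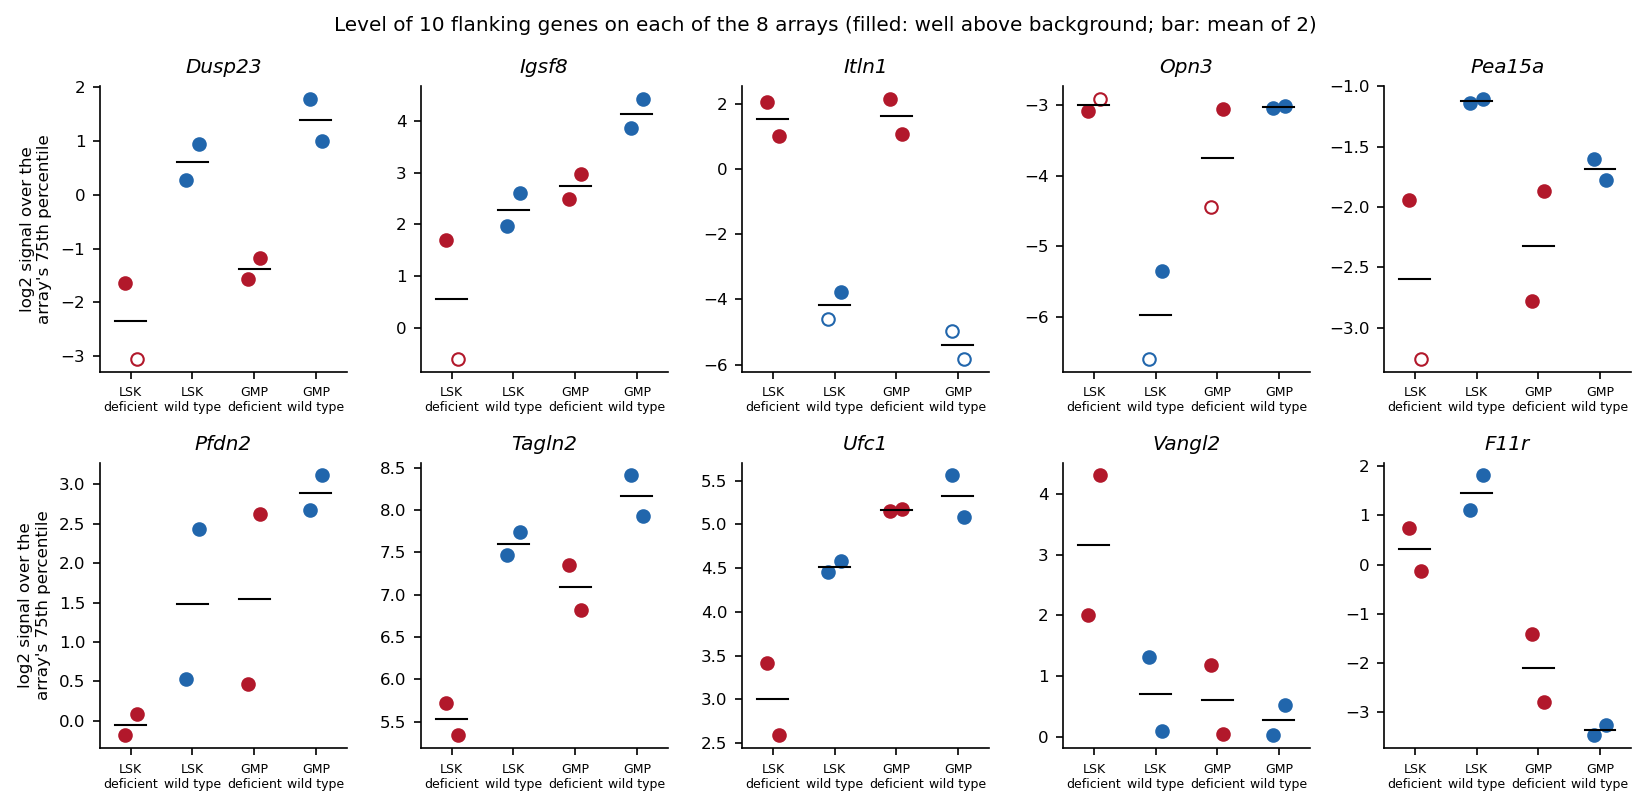
Level of 10 flanking genes on each array (y axis, log2 signal over the array's 75th percentile; each panel has its own scale), with deficient arrays in red and wild-type arrays in blue, filled where the spot was well above background, and a bar at the mean of 2 arrays. The 4 deficient arrays of Itln1 lie between 1.01 and 2.16, above all wild-type arrays, and those of Dusp23 between −3.05 and −1.17, below all wild-type arrays.

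Across the 41 tested members few passed the test between genotypes. In LSK 1 was called (adjusted p under 0.05), Itln1, against 0.239% of all features, and in GMP 1, again Itln1, against 0.146%. In the averaged comparison 2 of 41 were called, Itln1 higher and Dusp23 lower, against 0.602% of all features, of which 0.595% were higher. Only 2 of the 28088 features (0.00712%) were called lower there, and Dusp23 was 1 of them. Itln1 passed the filter through its deficient groups only. The members were also chosen with earlier results of these data known. The counts beside the shares of all features are therefore a description and no test. At an unadjusted p under 0.05, 6 of 41 (14.6%) stood apart in LSK against 8.83% of all features, 2 (4.88%) in GMP against 4.82%, and 5 (12.2%) in the average against 12.2%, so these shares were at or near the background except in LSK. The median difference of the members was −0.20 in LSK and 0.24 in GMP, against 0.11 and 0.16 over all features.

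In LSK the arrays of the genotypes did not overlap for 15 members (36.6%), against 37.5% of all features, 7 of them higher (16.4% of all features) and 8 lower (21.1%) in deficient cells. In GMP this held for 20 (48.8%), against 39.5%, with 10 higher (20.1% of all features) and 10 lower (19.5%). For 7 members (17.1%) they did not overlap in either population and moved the same way, against 13.3% of all features. These were Itln1 and Kmo, higher in deficient cells (6.01% of all features), and Dusp23, Igsf8, Pea15a, Pfdn2 and Tagln2, lower (7.34%). Kmo, of kynurenine monooxygenase, an enzyme of tryptophan breakdown, differed by only 0.21 in LSK and 0.54 in GMP, and by 0.62 and 0.09 at its second probe.

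Tagln2 was the next member on the lower side. It encodes transgelin 2, an actin-binding protein, and read 5.73 and 5.34 in deficient LSK, against 7.47 and 7.74 in wild-type LSK. It read 7.36 and 6.82 in deficient GMP, against 8.41 and 7.93 in wild-type GMP. All deficient arrays lay below the wild-type arrays of the same population. The difference was −2.07 in LSK (SE 0.63, adjusted p = 0.473), −1.08 in GMP (adjusted p = 0.955) and −1.58 averaged (SE 0.45, adjusted p = 0.295), none past the threshold. Its second probe gave −2.05 in LSK and −1.94 in GMP. Without the 2 arrays that stood apart, deficient LSK replicate 2 and deficient GMP replicate 1, the averaged difference was −1.61 (adjusted p = 0.291).

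Of the 6 phosphatase and signalling members, the other 4 had no call. Pea15a, whose protein binds ERK kinases and death effector domains, read −1.94 and −3.26 in deficient LSK, against −1.14 and −1.11 in wild-type LSK. It read −2.78 and −1.87 in deficient GMP, against −1.60 and −1.78 in wild-type GMP, and its averaged difference was −1.06 (SE 0.50, adjusted p = 0.424). Deficient arrays were lower in both populations, in GMP by little. The −3.26 on deficient LSK replicate 2 was not above background, and without that array the LSK difference was −0.82. Without deficient GMP replicate 1 the GMP difference was −0.18. Dusp12, another dual-specificity phosphatase gene, differed by −0.57 in LSK and 1.88 in GMP, where deficient replicate 1 read 5.95 and replicate 2 read 3.30, against 2.76 and 2.72 in wild-type GMP. Its second probe gave −0.34 in LSK and 0.10 in GMP. Arhgap30, of a GTPase-activating protein, differed by −0.20 and 1.43, the GMP value being −0.07 without deficient GMP replicate 1, and Rgs7, of a regulator of G protein signalling, by 0.67 and 0.52. Without deficient LSK replicate 2 the LSK differences of Dusp12, Arhgap30 and Rgs7 changed sign, to 0.26, 0.06 and −0.22.

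Among 9 tested members of the immunoglobulin superfamily and the SLAM receptors, 0 were called between genotypes. Igsf8, whose protein partners the tetraspanins CD9 and CD81, read 1.71 and −0.61 in deficient LSK, against 1.98 and 2.60 in wild-type LSK. It read 2.49 and 2.98 in deficient GMP, against 3.86 and 4.43 in wild-type GMP. Deficient arrays were lower in both populations, and the averaged difference was −1.57 (SE 0.59, adjusted p = 0.381). Without deficient LSK replicate 2, which was the array at −0.61 and not above background, the averaged difference was −0.997 (adjusted p = 0.691).

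The SLAM genes themselves, whose products are adhesion receptors of leukocytes, had 0 calls. Cd48, the CD48 used with CD150 to divide stem cells from progenitors, differed by −1.07 in LSK (SE 0.78, adjusted p = 0.601) and by 0.45 in GMP. Without deficient LSK replicate 2 the LSK difference of Cd48 was −0.18, and without deficient GMP replicate 1 its GMP difference was −0.003. Ly9 differed by 0.49 and −0.73, Slamf6 by −0.18 and 0.17, Slamf7 by −0.09 and 0.28, and Slamf9 by 0.78 and 1.32, with no overlap in GMP. The second kept probe of Ly9 gave −0.68 and −0.55 and that of Slamf6 1.30 and −0.68, so that signs differ between probes in LSK for Ly9 and in both populations for Slamf6. Cd48 has a second probe, which gave −2.20 in LSK and −1.14 in GMP, so that the probes differ in sign in GMP. On deficient LSK replicate 2 the second probes of Ly9, Slamf6 and Cd48 were not above background. Igsf9, of a neural adhesion protein, differed by 0.63 in LSK and 1.08 in GMP at its brighter probe and by −2.11 and 0.44 at the other. Without deficient LSK replicate 2 the LSK differences of Ly9, Slamf6, Slamf9 and Igsf9 at the tested probes changed sign, to −0.19, 0.21, −0.20 and −0.60. Over the 14 members with 2 tested probes, the sign was the same at both probes for 9 in LSK and 10 in GMP.

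F11r, which encodes the junctional adhesion molecule JAM-A of platelets, endothelium and haematopoietic progenitors, stood apart between genotypes in opposite ways. It read 0.74 and −0.12 in deficient LSK, against 1.11 and 1.81 in wild-type LSK, and −1.41 and −2.78 in deficient GMP, against −3.46 and −3.25 in wild-type GMP. The difference was −1.15 in LSK (SE 0.72, adjusted p = 0.575) and 1.26 in GMP (adjusted p = 0.955). The difference between these differences did not pass (adjusted p = 0.961).

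The other 2 tested members of the secreted group had no call. Apoa2, of a high-density lipoprotein apolipoprotein, read 1.83 and 2.01 in deficient LSK, against 1.38 and 1.19 in wild-type LSK, and 0.75 and 1.06 in deficient GMP, against 1.19 and 1.65 in wild-type GMP. Its differences of 0.63 in LSK and −0.51 in GMP were opposite in sign and did not pass (adjusted p = 0.665 and 0.984). Its other kept probe gave −0.59 in LSK and −4.47 in GMP, the same sign in both, and stood above background on 1 wild-type LSK array and both wild-type GMP arrays only. Apcs, of serum amyloid P, a pentraxin made by the liver, differed by 0.04 in LSK (SE 0.63) and 0.14 in GMP and was the closest tested member before Ackr1.

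Among 6 members for protein modification, folding and transport, 0 were called. Ufc1 encodes the conjugating enzyme of UFM1, a ubiquitin-like modifier. It read 3.41 and 2.59 in deficient LSK, against 4.45 and 4.58 in wild-type LSK, a difference of −1.51 (SE 0.64, adjusted p = 0.551) with no overlap. In GMP it read 5.15 and 5.17 in deficient cells, against 5.56 and 5.08 in wild-type cells, with overlap and a difference of −0.16.

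Pfdn2, of a subunit of prefoldin, which hands unfolded actin and tubulin to the chaperonin, read −0.18 and 0.09 in deficient LSK, against 0.54 and 2.43 in wild-type LSK. It read 0.47 and 2.63 in deficient GMP, against 2.67 and 3.11 in wild-type GMP. The genotypes did not overlap in either population, though in GMP the nearest arrays read 2.63 and 2.67. The arrays of wild-type LSK and of deficient GMP lay farther apart than the genotypes did on average. The averaged difference was −1.44 (SE 0.63, limma, adjusted p = 0.405). Without deficient GMP replicate 1 the GMP difference was −0.26. Copa, of the alpha subunit of the COPI coat, differed by −1.50 in LSK and −0.99 in GMP, with −0.23 on deficient LSK replicate 2 and 2.70 on replicate 1, and its second probe gave −1.60 and −2.38. Without deficient LSK replicate 2 the LSK difference of Copa was −0.03. Ncstn, of the gamma-secretase subunit nicastrin, differed by 0.73 and 0.65, Tomm40l, of a mitochondrial import channel, by −0.17 and −0.13, and Chml, of a Rab escort protein, by −0.75 and 1.11. For Ncstn the LSK difference was 0.29 without deficient LSK replicate 2, where it was not above background. For Chml the LSK difference was 0.55 without deficient LSK replicate 2, which was not above background. Its GMP difference was −0.07 without deficient GMP replicate 1.

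The 6 metabolic members had 0 calls in LSK, in GMP and averaged. Fh1 encodes fumarase of the tricarboxylic acid cycle, and read 4.35 and 1.57 in deficient LSK, against 4.04 and 3.91 in wild-type LSK. It read 7.40 and 5.34 in deficient GMP, against 4.97 and 4.72 in wild-type GMP. The differences of −1.02 in LSK (SE 0.99) and 1.53 in GMP did not pass (adjusted p = 0.664 and 0.955), and without deficient LSK replicate 2, which read lowest, the LSK difference was 0.37. Uap1 and B4galt3, of sugar nucleotide and glycan synthesis, differed by −0.55 and 0.36 in LSK and by 1.01 and 0.11 in GMP. Without deficient GMP replicate 1 the GMP difference of Uap1 was −0.30. The second probe of B4galt3, above background on all 8 arrays, gave −1.41 in LSK and −1.34 in GMP, with deficient arrays below wild-type arrays in both. Pigm, of glycosylphosphatidylinositol anchor synthesis, differed by 0.62 and 1.53, the GMP value being 0.11 without deficient GMP replicate 1, and Nit1, of an amidase, by −0.39 and −0.33.

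Ion transport, muscle and neural members are mostly known from other tissues and 0 of the 5 tested were called. Opn3, of an opsin of brain and other tissues, read −3.09 and −2.91 in deficient LSK, against −6.59 and −5.35 in wild-type LSK. It read −4.44 and −3.06 in deficient GMP, against −3.05 and −3.02 in wild-type GMP. It stood above background on 1 of 2 arrays in each group other than wild-type GMP, where both were above it. The difference was 2.97 in LSK (SE 0.74, adjusted p = 0.298) and −0.72 in GMP, with the genotypes apart in opposite ways, and the difference between them was −3.69 (SE 1.04, adjusted p = 0.961).

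Vangl2, of a planar cell polarity membrane protein, read 2.001 and 4.30 in deficient LSK, against 1.31 and 0.10 in wild-type LSK, and 1.18 and 0.06 in deficient GMP, against 0.03 and 0.53 in wild-type GMP. The LSK difference was 2.44 (SE 0.89, adjusted p = 0.55) with the higher value on deficient replicate 2, and the second probe gave 0.32. The potassium channel gene Kcnj10 differed by 1.30 in LSK and 0.56 in GMP. It was not above background on deficient LSK replicate 2, and without that array its LSK difference was 0.60. Its relative Kcnj9 was above background on no deficient array and on all wild-type arrays, and was at least 1.14-fold lower in deficient GMP (adjusted p = 1). In LSK the difference of Kcnj9 was 0.73, with −6.21 and −1.66 on the deficient arrays, against −3.87 and −5.45 in wild-type LSK. Without deficient LSK replicate 2 it was −1.55. Pcp4l1, a Purkinje cell protein gene, differed by −0.88 and 0.24.

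The remaining 6 members, transcription factors, a DNA repair enzyme and others, had 0 calls. Nr1i3, the CAR nuclear receptor of liver, differed by 3.22 in LSK (SE 1.81) and 2.01 in GMP, and its deficient LSK arrays read −3.26 and 2.47, against −2.32 and −4.91 in wild-type LSK. Its second probe gave 1.29 and 0.59, and was not above background on deficient LSK replicate 2. Usf1, of the E-box factor USF1, differed by −1.23 and −1.63, the GMP value being 0.08 without deficient GMP replicate 1, and Dedd, of a death effector domain protein, by −0.24 and −2.47, with −5.74 on deficient GMP replicate 1 and −1.82 on replicate 2. Nhlh1, of a neural basic helix-loop-helix factor, differed by 0.87 and −0.06 at the probe tested. Its second probe, above background on all 8 arrays, gave 2.67 in LSK and 1.82 in GMP, with deficient arrays above wild-type arrays in both. Klhdc9 differed by −1.29 and 0.88, and without deficient LSK replicate 2, which was not above background, by 0.13 in LSK. Exo1, of an exonuclease of DNA mismatch repair and recombination, differed by −0.57 and 0.27, and by 0.81 in LSK without deficient LSK replicate 2 and −0.22 in GMP without deficient GMP replicate 1.

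The size of the difference showed no order along the chromosome. The averaged difference without its sign correlated with the number of genes between a member and Ackr1 at Pearson's r = −0.07 and Spearman's coefficient of −0.16 over 41 members, which share their 8 arrays. Before Ackr1, 34 tested members had a median difference of −0.19 in LSK and 0.16 in GMP, and after it 7 had −0.46 and 0.52. Itln1 is 41 genes from Ackr1, and its tested neighbours F11r and Ly9 differed by −1.15 and 0.49 in LSK. Dusp23 is 11 genes away, beside Tagln2 on one side and Apcs on the other among tested members.

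**Figure D2:**
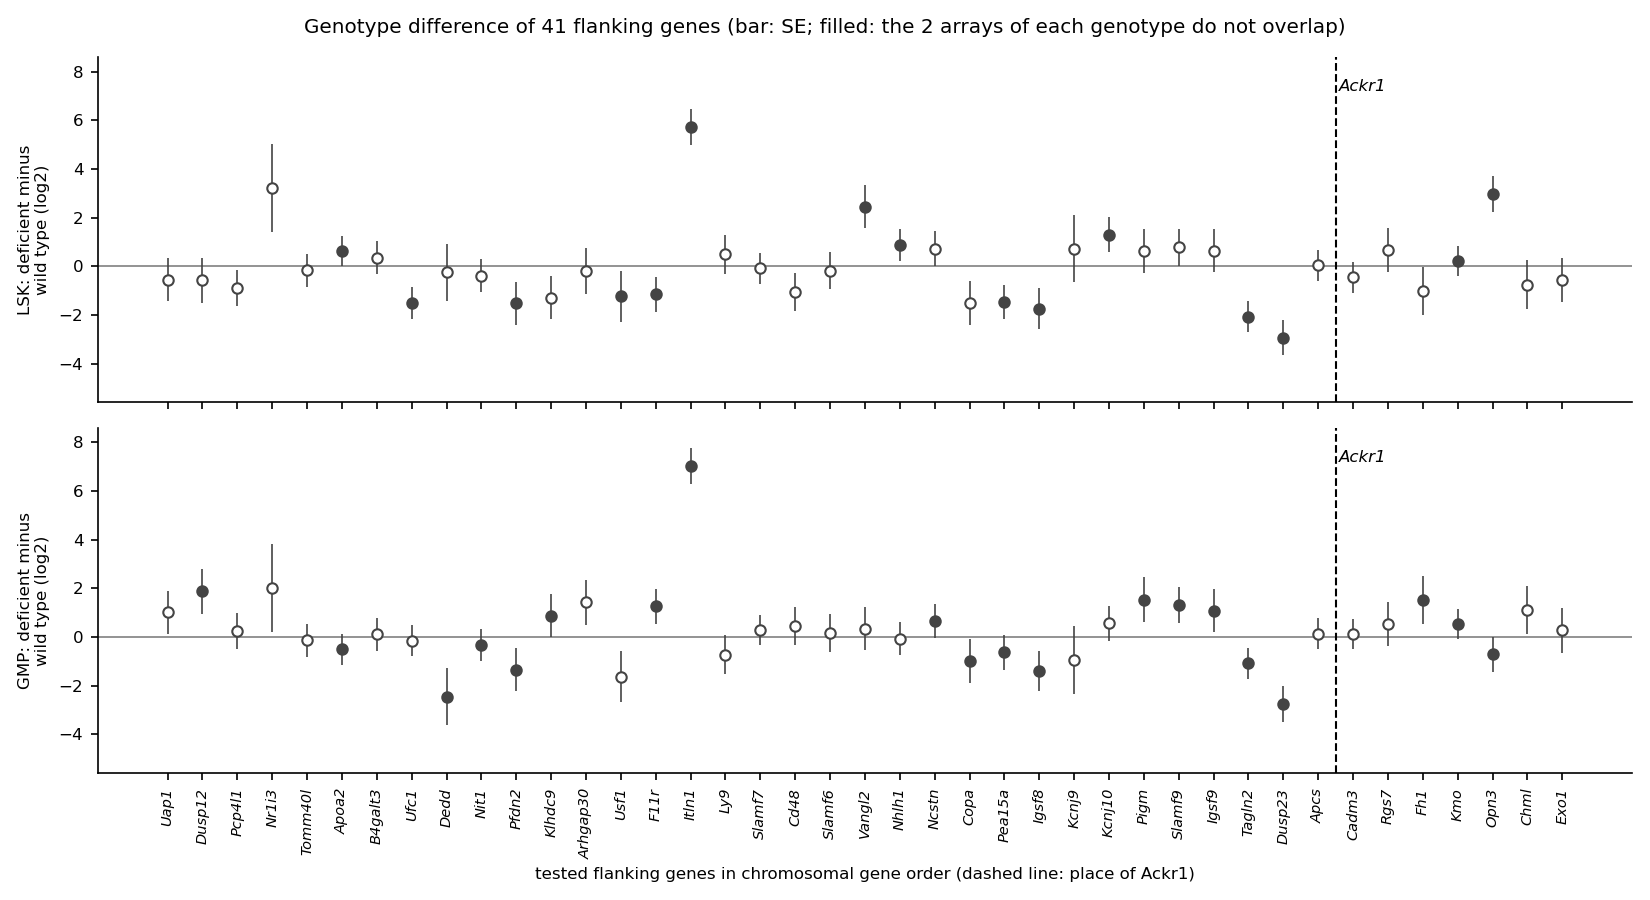
Genotype difference (y axis, deficient minus wild type, log2) in LSK (top) and GMP (bottom) for 41 flanking genes in gene order (x axis), with SE bars, filled where the arrays of the genotypes do not overlap, and a dashed line at the place of Ackr1. Itln1 stands at 5.71 and 7.02 and Dusp23 at −2.94 and −2.76, and both signs occur all along the segment.

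LSK and GMP differences had the same sign for 23 of 41 members (56.1%), against 60.8% of all features. Their correlation across members was r = 0.629 (Spearman's 0.384), against r = 0.427 (Spearman's 0.326) over all features, where each point comes from the same slide and no array is shared. Without Itln1 and Dusp23 the 39 other members gave r = 0.274 (Spearman's 0.285). For the difference between the 2 genotype differences, 0 members passed (limma), against 0% of all features. At an unadjusted p under 0.05, 2 members, F11r and Opn3, stood apart, against 2.47% of all features.

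**Figure D3:**
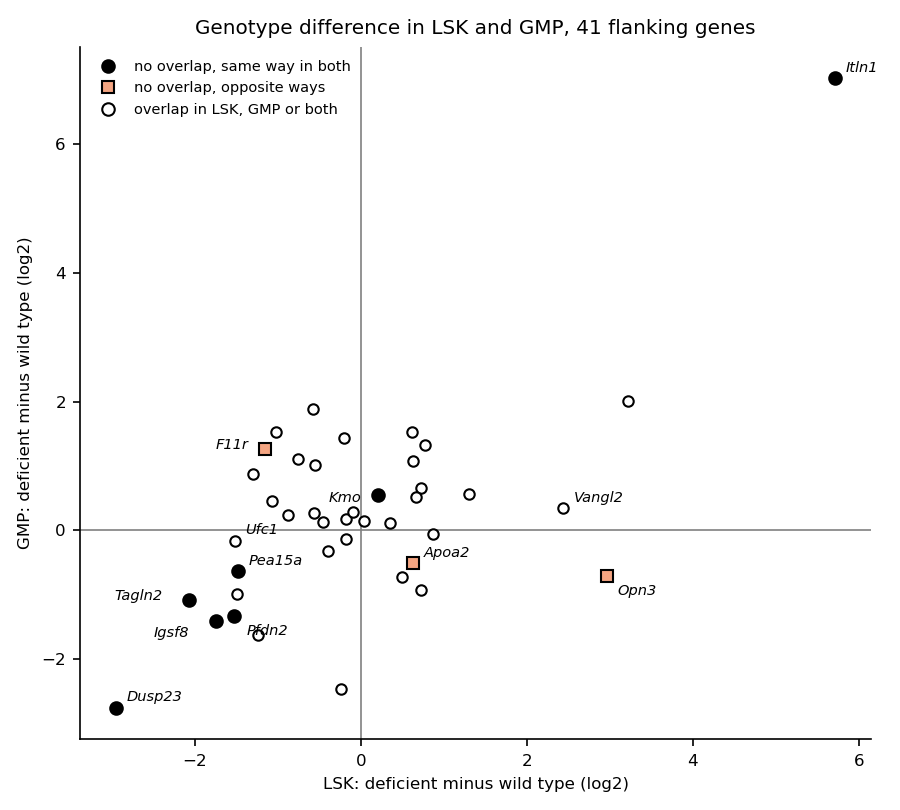
Genotype difference in GMP (y axis) against that in LSK (x axis), both deficient minus wild type on the log2 scale, for 41 flanking genes, with filled circles where the genotypes do not overlap in the same way in both populations and squares where they do so in opposite ways. Itln1 lies at 5.71 and 7.02, Dusp23 at −2.94 and −2.76, and Opn3 at 2.97 and −0.72.

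Between populations the clearest member was F11r, which was lower in GMP than in LSK. In wild-type marrow it read −3.46 and −3.25 in GMP, against 1.11 and 1.81 in LSK, and fell by 4.82 on the log2 scale (SE 0.72, adjusted p = 0.0109), 28.2-fold. In deficient marrow it read −1.41 and −2.78 in GMP, against 0.74 and −0.12 in LSK, a difference of −2.41 (SE 0.72, adjusted p = 0.183). The populations did not overlap in either genotype. The wild-type call was lost without wild-type LSK replicate 1 or 2 (adjusted p = 0.0904 and 0.134) and without wild-type GMP replicate 1 or 2 (0.102 and 0.1), and was kept without both arrays that stood apart (0.00667). F11r was the 1 member called of 41 in wild-type marrow, against 1.86% of all features (1.36% lower in GMP).

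In deficient marrow 0 members were called between GMP and LSK (limma), against 0% of all features. The populations did not overlap for 16 members (39%) in deficient marrow, against 37% of all features, and for 26 (63.4%) in wild-type marrow, against 48.4%. At an unadjusted p under 0.05, 10 of 41 (24.4%) stood apart in deficient marrow, against 16.7% of all features, and 4 (9.76%) in wild-type marrow, against 8.4%. Fh1 differed between populations by 3.41 in deficient marrow (SE 0.99, adjusted p = 0.174) and by 0.87 in wild-type marrow, Ufc1 by 2.16 (adjusted p = 0.18) and 0.81, and Cd48 by 2.31 (adjusted p = 0.209) and 0.79. Of 41 members, 17 were lowest on deficient LSK replicate 2, which enters the deficient comparison. Without deficient LSK replicate 1 that array, with 34.3% of its spots above background, is alone in its group. Members called in such a run are not named here, because it assumes that a lone array varies like the arrays of the other groups.

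**Figure D4:**
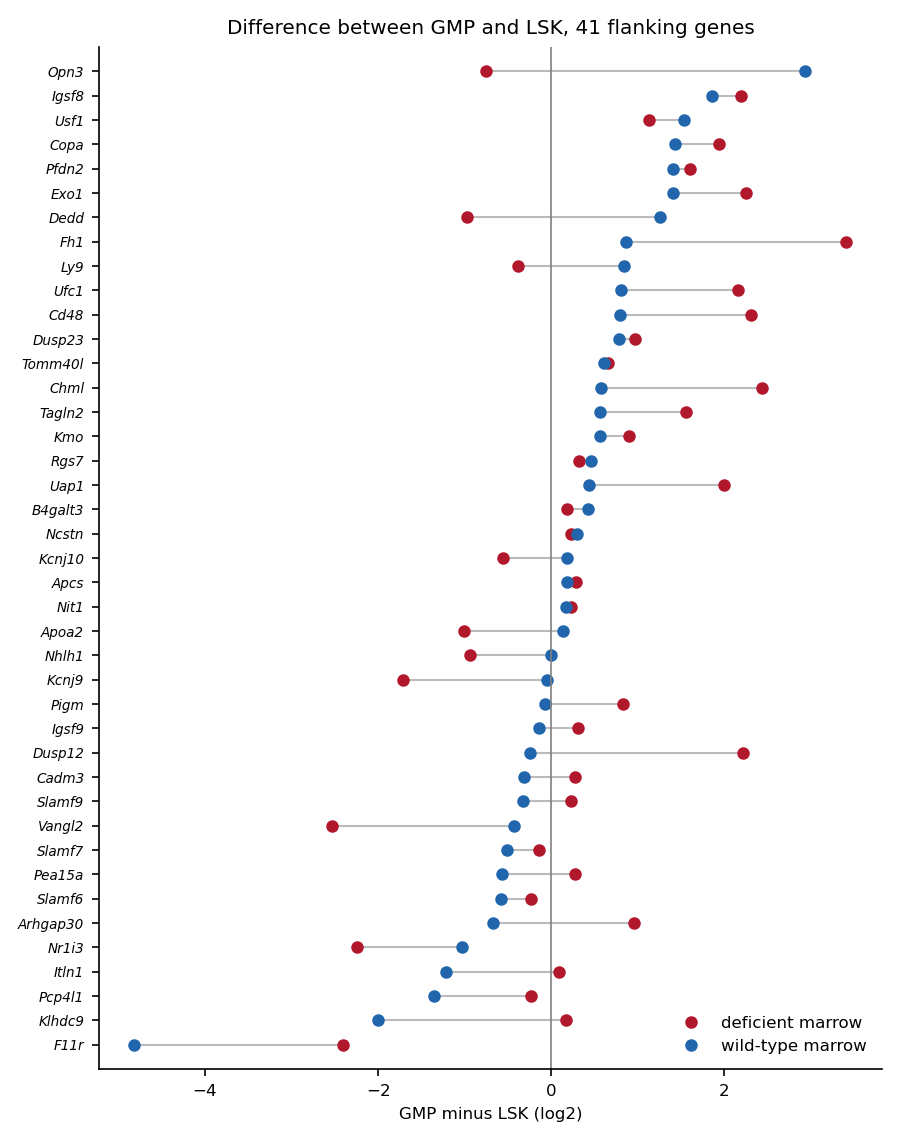
Difference between GMP and LSK (x axis, log2) for 41 flanking genes (rows, ordered by the wild-type value), in deficient marrow (red) and wild-type marrow (blue). F11r is lowest in wild-type marrow, at −4.82, with −2.41 in deficient marrow, where Vangl2 is lower at −2.53, and Fh1 is highest in deficient marrow at 3.41, with 0.87 in wild-type marrow.

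Genes that work with members were read from lists chosen with earlier results of these data known, and 4 tested SLAM genes and adaptors and Sdhc of the tricarboxylic acid cycle lie in the stretch themselves. The 15 listed genes of the tricarboxylic acid cycle other than Fh1 had 0 calls between genotypes, with a median difference of −1.04 in LSK and −0.29 in GMP. Only 1 of the 15 was above 0 in LSK, against 15020 of 28088 features. That comparison takes in deficient LSK replicate 2, the dim array, and its part in this was not tested. Without it the LSK difference of Fh1 was 0.37. Between GMP and LSK in deficient marrow, which also takes in that array, the median of the 15 was 1.88. There 7 of 15 (46.7%) had an unadjusted p under 0.05, against 16.7% of all features, and 0 were called. In wild-type marrow the median was 0.97. The 7 other UFM1 conjugation genes, 8 other coatomer subunits, 4 tested of 5 other gamma-secretase subunits and 5 other prefoldin subunits had 0 calls between genotypes, with medians of −0.46, −0.70, −0.64 and −0.62 in LSK and −0.63, −0.25, 0.10 and 0.50 in GMP. Of the 5 tested genes among SLAM relatives and adaptors, 0 were called between genotypes.

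Of the 74 other protein-coding genes between Uap1 and Exo1, 50 were tested. In LSK 0 were called between genotypes, against 0.239% of all features. In GMP 2 (4%) were called, against 0.146%, and in the average 4 (8%), against 0.602%. All were higher in deficient cells. Of the 4, 3 are given here. Averaged, Ifi202b, an Ifi200 gene, differed by 6.52 (SE 0.71, adjusted p = 0.00304), Fcer1a, of the mast cell and basophil IgE receptor, by 4.49 (adjusted p = 0.0294) and Fcrla, of a B cell Fc receptor-like protein and 1 of the 5 B cell genes above, by 2.82 (adjusted p = 0.0361). The Fcrla average takes in wild-type GMP values not above background. Fcrla was at least 8.66-fold higher in deficient GMP, and differed by 1.06 in LSK (limma, adjusted p = 0.578). On chromosome 1 outside the stretch, 5 of 790 genes (0.633%) were called in the average, near the share of all features (0.602%). Of 8 tested Ifi200 genes, Ifi202b alone was called between genotypes, and in GMP it read 5.17 and 2.39 in deficient cells, against −5.505 and −4.995 in wild-type cells. Ifi202b lies 13 genes after Ackr1, Fcer1a 3 and Fcrla 70 genes before it.

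Between populations in wild-type marrow, 6 of these 50 genes (12%) were called, against 1.86% of all features. Fcgr3, of the CD16 part of the GMP gate, was higher in GMP by 5.94 (adjusted p = 0.0282), Fcer1g, of the Fc receptor gamma chain, by 3.66 (adjusted p = 0.0312), and Ifi209 by 4.54 (adjusted p = 0.0196). Fcer1a was at least 27.4-fold higher in GMP. Slamf1, of CD150, was at least 8-fold lower in GMP (adjusted p = 0.0118) and Fcrla at least 5.02-fold lower (adjusted p = 0.0233), with neither wild-type GMP array above background.

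The averaged Itln1 difference passed under all 20 alternatives that could give it, between 3.88 and 6.63, and the filter for probes above background on all 8 arrays removed it. The averaged Dusp23 difference kept its direction under the same 20, between −3.50 and −1.95, and passed under 4 of them.

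**Figure D5:**
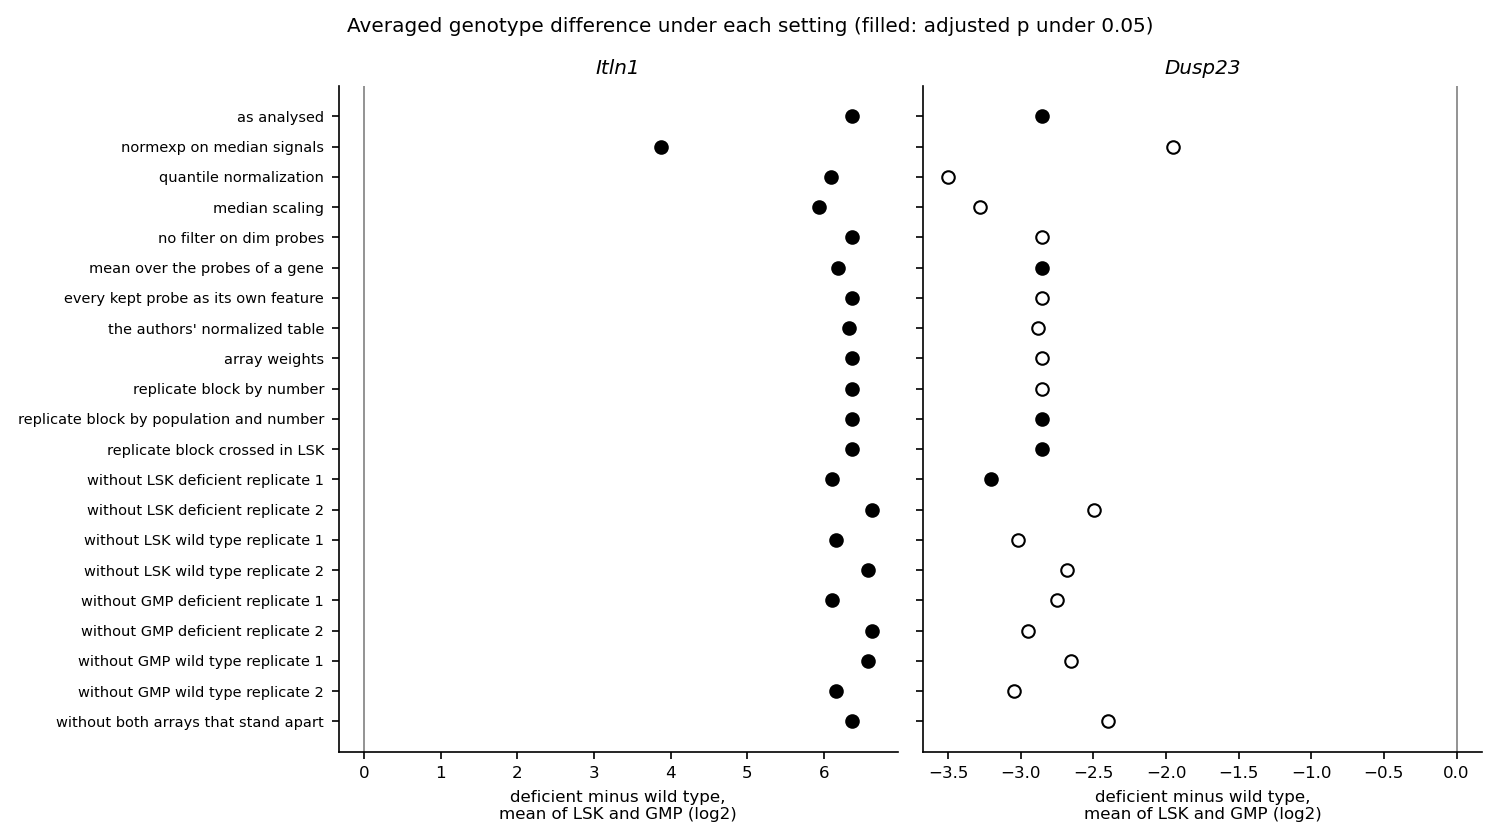
Averaged genotype difference (x axis, deficient minus wild type, log2) of Itln1 (left) and Dusp23 (right) under each setting (rows), filled where the adjusted p was under 0.05. Itln1 is filled in every row, from 3.88 to 6.63, and Dusp23 in 5 of the 21 rows shown, from −3.50 to −1.95.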

How the data were processed

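Scanner files of 8 one-colour arrays held processed signals as deposited by the authors, in intensity units; per the file headers they came from Agilent Feature Extraction 10.7.3.1, which subtracts background. The authors' deposited table of normalized values is on a log2 scale and followed the centred scanner values at r of 0.999687 to 0.999965 per array; its centring is not given in the sources used here, and its column medians ran from −0.26 to 1.24. It served as an alternative.

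Outlier spots (104 to 139 per array) and control spots were left out, log2 processed signal was set to 0 at each array's 75th percentile of 59305 spots, and spots of a probe were averaged. Probes were kept if 1 group or more had them well above background on each of its arrays, and a gene took its probe with the highest mean. Probes were named through RefSeq accessions; gene order came from RefSeq's GRCm38.p6 table, and the array files' build was not used. limma 3.58.1 in R 4.3.3 was fitted to 4 groups (residual df 4, prior df 5.76), with Benjamini-Hochberg adjustment over 28088 features, after tests on simulated data. Members and lists were chosen with earlier results of these data known. A member was described in full if called, or with an unadjusted p under 0.05, between genotypes, or with genotypes apart the same way in both populations and an averaged difference of at least 1; F11r, called between populations, and the other array values given were chosen after their values were seen. Replicate numbers gave correlations of deviations of −0.344 in LSK and 0.262 in GMP, so no pairing was assumed. The files held no mean signals, so normexp used median signals. The number of arrays limits precision. The result of 1 gene is not reported here.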

Additional observations from a re-analysis of the deposited data

Results flagged for a closer look

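For 3 members the arrays of the genotypes did not overlap in LSK or in GMP and lay in opposite directions. The genotype difference in GMP minus that in LSK was −3.69 for Opn3, 2.41 for F11r and −1.15 for Apoa2. In deficient minus wild type, Opn3 was 2.97 in LSK and −0.72 in GMP, F11r −1.15 and 1.26, and Apoa2 0.63 and −0.51. The second kept probe of Apoa2 was negative in both, at −0.59 and −4.47, so its opposite directions rest on 1 probe. The test of this difference (limma) did not pass for any of them, with an adjusted p of 0.961 each. All features together gave 970 such opposite cases among 28088.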

How the results depend on the processing

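Counts of members called changed with the processing. The shares of all features called under the same settings are not given here, so a higher count cannot be read as a result about the members. Runs that leave 1 array alone in a group assume that it varies like the arrays of the other groups. In LSK the count was 1, and 0 under quantile normalization, median scaling, no filter on dim probes, the filter for all 8 arrays, array weights, and without both arrays that stood apart; leaving out 1 array gave 0 to 6, the 6 without deficient LSK replicate 1. In GMP it was 1, and 0 under quantile normalization, median scaling, the filter for all 8 arrays, the compared groups only, and without both arrays; leaving out 1 array gave 0 to 1. Averaged, it was 2, and 1 under normexp, quantile normalization, median scaling, no filter, every probe on its own, the authors' table, array weights, a replicate block by number, and without both arrays, 0 under the filter for all 8 arrays, and 1 to 2 with 1 array left out. The count for a difference between populations was 0 under all 21 alternatives. Between populations it was 0 in deficient marrow, 2 under normexp and 0 to 8 with 1 array left out; in wild-type marrow it was 1, 0 under quantile normalization and median scaling, 2 with every probe on its own, 4 with array weights, 3 for the compared groups only and without both arrays, and 0 to 1 with 1 array left out. The filter for all 8 arrays removes Itln1 and Dusp23 from the test; other causes were not tested.

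In GMP the sign reversed for Opn3 under normexp (0.0403), for Vangl2 without both arrays (−0.224) and with 1 array left out (−0.224 to 0.898, the lowest without deficient GMP replicate 1), and for Ufc1 with 1 array left out (−0.398 to 0.0751, the highest without wild-type GMP replicate 1); none of these values passed. The scaling moved the median LSK difference of all features from 0.11 to 0.41 under normexp, −0.21 under quantile normalization and −0.46 under median scaling. A replicate block by population and number called 3 members in the average, Dusp23, Itln1 and Nr1i3. Because same-numbered LSK arrays deviated in opposite ways, a crossed pairing in LSK was also run, and called 4 members in LSK, 1 in GMP and 3 averaged. Normexp on median signals, the run without both arrays and the crossed pairing were chosen after seeing the data. The shares of all features called with the block or with the crossed pairing are not given here.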
